A study of Mus musculus with 12 samples.

Results

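The genes described here are 9 genes used as a signature of microglia, P2ry12, Gpr34, Siglech, Fcrls, Slc2a5, Tmem119, Sparc, Olfml3 and Sall1, measured in sorted macrophages of the brain borders. They were chosen by name, as 9 of the 56735 gene names in the count table, and all 9 were among the 13724 genes that passed the filter on low counts. Microglia are the macrophages of the brain parenchyma. The cells sorted here are a different population, the subdural CNS-associated macrophages (sdCAMs) of the leptomeninges and perivascular spaces, which carry the mannose receptor CD206 that microglia largely lack. Microglia and sdCAMs both need signalling through the CSF-1 receptor to survive.

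Bulk RNA-seq was performed on CD206+ cells of mouse brain from which the choroid plexuses had been removed. All mice were homozygous for a tamoxifen-inducible Cre at Mrc1, the gene of CD206 (genotype label Mrc1CreERT2/CreERT2), and for a Cre-dependent tdTomato (tdT) reporter at Rosa26 (R26tdT/tdT). Cells that expressed Mrc1 when tamoxifen was given, and their progeny, can carry tdT. A CD206+ cell is tdT- if it escaped recombination or if it stems from a cell that did not express Mrc1 at that time. The paper describes the tdT- cells found after BLZ945 as derived from haematopoietic stem cells. Their origin was not tested here. At 4 weeks after tamoxifen, mice received vehicle or BLZ945, a CSF-1 receptor inhibitor that depletes both kinds of macrophage, at 200 mg per kg for 7 days. Cells were taken 8 weeks after this treatment. The 3 groups of 4 libraries are vehicle tdT+, BLZ945 tdT+ and BLZ945 tdT- cells. Mice are labelled F1, F2, M1 and M2. Among the BLZ945 mice, a tdT+ and a tdT- library that share a label are from 1 animal, whereas the vehicle group consists of separate animals. The labels give no age at isolation.

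Each library held between 19969308 and 23395058 counts and between 14230 and 15866 detected genes. The tdTomato entry had 0 counts in all 12 libraries and could not be used to check the sort. Border macrophage genes were detected in every library, with levels given in normalised counts (counts divided by the size factor of the library). The summed level of 10 such genes lay between 247266 and 277499 in vehicle tdT+ and between 284129 and 362409 in BLZ945 tdT+ libraries. In BLZ945 tdT- libraries it lay between 106624 and 157603. The sum of the signature genes was lower than this border sum in vehicle tdT+ (105716 to 143690) and BLZ945 tdT+ libraries (135305 to 145059). In BLZ945 tdT- libraries the signature sum was higher than the border sum, at 200135 to 384397. The sums come from lists of different length and are not corrected for exon length, so which is larger depends on the genes listed. Fcrls alone had a mean of 76947.5 in vehicle tdT+ libraries, where the mean signature sum was 130953. Whether these sums establish the identity of the cells was not tested. The tdT- library F2 stood apart, with a summed level of 422704 normalised counts for 5 neutrophil genes where no other library exceeded 69.4, and results are given without it where it matters. Among markers of cells outside the macrophage lineage, the endothelial sum (6 genes) was at most 330 and the mural sum (5 genes) at most 359 normalised counts. Neuronal and lymphocyte sums were at most 692 and 688, fibroblast sums at most 421, and oligodendrocyte sums lay between 4302 and 12420 in all groups. Erythroid sums reached 8778 in vehicle, 15807 in BLZ945 tdT+ and 36171 in tdT- libraries, and were as low as 8.44 in another tdT- library. The highest monocyte sum, 39198, came from 1 tdT- library, in which Chil3 had 32358 normalised counts and which alone held any Chil3. The astrocyte sum (7 genes) lay between 954 and 1834 in vehicle, between 1349 and 3662 in BLZ945 tdT+ and between 2974 and 4275 in tdT- libraries. The astrocyte sum was thus highest in the tdT- group, and the part of these markers in the results was not tested. In bulk samples, fewer cells of a type and less RNA per cell cannot be told apart.

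The signature was present in every library of every group. Together the 9 genes made up 0.648 ± 0.0808% of all counts in vehicle tdT+, 0.679 ± 0.0131% in BLZ945 tdT+ and 1.25 ± 0.371% in BLZ945 tdT- libraries (mean ± SD, n = 4). To compare genes with each other, levels were expressed per exon length as TPM, a count per exon length scaled to the same total in each library. In vehicle tdT+ cells Fcrls led with 4336 ± 582 TPM, followed by Gpr34 with 1149 ± 125, P2ry12 with 853 ± 120 and Tmem119 with 242 ± 73.5. Sparc (141 ± 42.4), Siglech (137 ± 30.7) and Olfml3 (136 ± 28.3 TPM) came next and did not differ from each other beyond their spread, while Slc2a5 had 32.8 ± 14.3 and Sall1 5.55 ± 1.87 TPM. In BLZ945 tdT- cells Fcrls (3114 ± 504 TPM) and P2ry12 (3078 ± 1350 TPM) did not differ beyond their spread. In the tdT- library M1 P2ry12 was above Fcrls, with 4945 against 3372 TPM, and in the other 11 libraries Fcrls was above P2ry12.

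Promoter sequences are shown for Siglech and Olfml3, the pair of genes whose ratio varied least over the libraries. They are taken from RefSeq on build GRCm38.p6, which differs from the build of the counts, and were available for 7 of the 9 genes. Each run covers 240 bases, from base 250 to base 11 before the start of the gene, 5′ to 3′ on the strand of the gene, at chr7:55767934-55768173 (plus strand) for Siglech and at chr3:103738012-103738251 (minus strand) for Olfml3. Capitals mark GGAAGT or its reverse complement ACTTCC, a core motif bound by ETS factors such as PU.1.
Siglech: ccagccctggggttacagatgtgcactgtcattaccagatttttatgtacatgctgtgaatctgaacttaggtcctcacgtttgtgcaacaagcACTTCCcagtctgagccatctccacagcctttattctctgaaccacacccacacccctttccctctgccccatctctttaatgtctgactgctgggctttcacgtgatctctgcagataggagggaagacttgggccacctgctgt
Olfml3: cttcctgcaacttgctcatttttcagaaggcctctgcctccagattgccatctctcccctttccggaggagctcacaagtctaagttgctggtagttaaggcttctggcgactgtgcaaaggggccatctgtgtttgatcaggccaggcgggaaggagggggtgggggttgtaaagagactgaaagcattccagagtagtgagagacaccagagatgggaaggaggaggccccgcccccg
GGAAGT stood in 4 of the 9 promoter entries of these genes (Sall1 has 3 entries) and in 18.7% of all 32851 entries. The longer GAGGAAGT, which contains it, stood in 0 of 9 and 2.29% of all, TATAAA in 1 of 9 and 12.1%, and TTTGCAT in 0 of 9 and 4% of all, both strands searched. These counts describe letters in the window and nothing about binding.

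The receptors were examined first. P2ry12 (chromosome 3, 59123693 to 59170292, GRCm39) encodes the purinergic receptor through which microglial processes follow ADP. Its level was 16925, 18013, 17806 and 13222 normalised counts in vehicle tdT+ libraries F1, F2, M1 and M2, and 21260, 20588, 21725 and 23924 in the BLZ945 tdT+ libraries in the same order. In tdT- cells it was 42296, 44758, 106728 and 67976. All 4 tdT- libraries lay above every tdT+ library, with M1 well above the others, and the fold within the same mouse lay between 1.99 and 4.91. P2ry12 shares 9 exon bases with Med12l on the opposite strand, which had at most 455 counts. Siglech (chromosome 7, 55417926 to 55428673), a receptor of the Siglec family, had 4028, 4162, 3452 and 2444 normalised counts in vehicle tdT+, 5652, 6286, 4448 and 5017 in BLZ945 tdT+ and 11120, 12307, 21250 and 15074 in tdT- libraries. Its groups were ordered without overlap, vehicle lowest and tdT- highest.

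Gpr34 (chromosome X, 13498328 to 13507097), a receptor for lysophosphatidylserine, changed less. It had 16466, 19700, 19463 and 17261 normalised counts in vehicle tdT+ and 19437, 19888, 15229 and 20965 in BLZ945 tdT+ libraries, which overlapped. In tdT- libraries it had 24949, 28731, 48399 and 37366, all above both tdT+ groups. Fcrls (chromosome 3, 87158065 to 87171045), an Fc receptor-like scavenger receptor, went the other way. It had 87471, 82980, 74209 and 63130 normalised counts in vehicle tdT+, 69972, 74017, 73102 and 73095 in BLZ945 tdT+ and 60294, 46213, 66721 and 68332 in tdT- libraries. Every tdT- library was below every BLZ945 tdT+ library, while tdT- and vehicle libraries overlapped.

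Of the transporter and membrane genes, Slc2a5 (chromosome 4, 150203740 to 150228626) encodes the fructose transporter GLUT5. Its level was 986, 1270, 680 and 448 normalised counts in vehicle tdT+, 1163, 1264, 1311 and 1200 in BLZ945 tdT+ and 3904, 3728, 9824 and 7208 in tdT- libraries. The tdT+ groups overlapped and the tdT- libraries were all higher. Tmem119 (chromosome 5, 113931790 to 113938577) encodes a transmembrane protein widely used as a marker of microglia. It had 5534, 4425, 4766 and 2373 normalised counts in vehicle tdT+, 6302, 7892, 6871 and 4668 in BLZ945 tdT+ and 20749, 19938, 43862 and 28737 in tdT- libraries, with the same order of groups.

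Of the secreted proteins, Sparc (chromosome 11, 55285326 to 55314009) encodes a matricellular protein that several non-immune cell types also make. It had 4961, 4860, 4092 and 2308 normalised counts in vehicle tdT+, 9004, 5891, 6553 and 6496 in BLZ945 tdT+ and 20037, 21691, 52182 and 33804 in tdT- libraries, with 3 groups that did not overlap. Olfml3 (chromosome 3, 103629538 to 103645317) encodes an olfactomedin-like secreted protein. Its level was 7128, 7063, 6933 and 4370 normalised counts in vehicle tdT+, 7910, 9015, 5644 and 7135 in BLZ945 tdT+ and 19472, 21314, 32351 and 24696 in tdT- libraries, with overlapping tdT+ groups below all tdT- libraries. Sall1 (chromosome 8, 89753863 to 89770790) encodes a zinc-finger transcription factor required for microglial identity. It had 191, 320, 212 and 160 normalised counts in vehicle tdT+, 770, 219, 422 and 430 in BLZ945 tdT+ and 1482, 1455, 3081 and 2441 in tdT- libraries. Sall1 was the least abundant of the 9 per exon length, and its tdT+ groups overlapped.

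**Figure D1:**
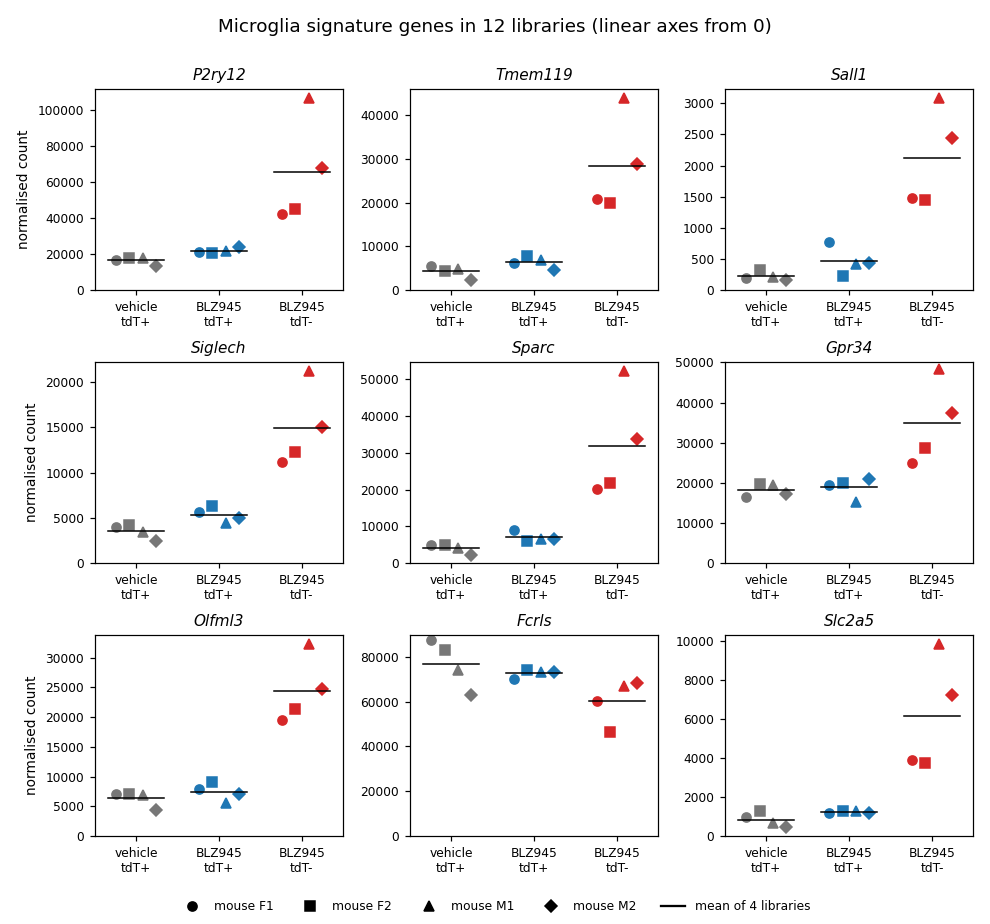
Normalised counts (y axis, linear from 0) of the 9 genes in vehicle tdT+, BLZ945 tdT+ and BLZ945 tdT- libraries (x axis), with 1 symbol per mouse label and a line at the mean of 4 libraries. For 8 genes all tdT- libraries lie above all tdT+ libraries, with M1 the highest, while Fcrls is lower in tdT- than in BLZ945 tdT+ cells.

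Within BLZ945 mice, tdT- cells were compared with tdT+ cells to find how cells without the reporter differ from labelled cells around them. In the DESeq2 fit over all 13724 genes, 8 of the 9 genes passed an adjusted p of 0.05, all higher in tdT- cells, and 0 were lower, beside 6.32% of all genes tested (2.85% higher and 3.48% lower). Without overlap between groups, 8 were higher and 1 (Fcrls) lower, beside 9.35% of all genes (4.56% higher and 4.79% lower). The log2 fold change (± SE, Benjamini-Hochberg adjusted p of DESeq2) was 2.32 ± 0.33 for Slc2a5 (adjusted p = 4.98e-10), 2.20 ± 0.39 for Sall1 (1.57e-06) and 2.19 ± 0.35 for Sparc (2.96e-08). It was 2.14 ± 0.32 for Tmem119 (DESeq2 adjusted p = 4.24e-09), 1.72 ± 0.19 for Olfml3 (2.40e-16), 1.58 ± 0.28 for P2ry12 (1.83e-06) and 1.48 ± 0.21 for Siglech (3.50e-10). These 7 genes also had a shrunken log2 fold change of at least 1, beside 2.25% of all genes by this rule (1.19% higher). The median log2 fold change of the 9 genes was 1.72. Within the same mouse the tdT- level was higher in 4 of 4 mice for 8 genes, with folds from 1.28 (Gpr34, lowest of 4) to 7.96 (Sparc, highest of 4).

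Gpr34 rose by 0.88 ± 0.17 on the log2 scale (DESeq2 adjusted p = 1.64e-05), below the fold threshold. With the mouse label as a replicate block, in a DESeq2 fit of the BLZ945 libraries only, its adjusted p was 0.156. This was the only value over 0.05 among 16 alternatives, which lay between 3.39e-08 and 0.156. Since that fit also left out the vehicle libraries, the part of the block in the lost call cannot be told apart. Fcrls changed by -0.26 ± 0.12 on the log2 scale (DESeq2 adjusted p = 0.230) and was lower in 4 of 4 mice, from 0.624 to 0.935 times the tdT+ level of the same mouse. The edgeR quasi-likelihood test with TMM called the same number, 8, with adjusted p of at most 0.0188. Without the tdT- library F2, which held the neutrophil genes, the count was again 8, here and against vehicle.

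Labelled cells found after depletion were next set against labelled cells of vehicle mice, to see whether the tdT+ population had changed. Here 0 of 9 genes passed in DESeq2, beside 0.955% of all genes tested (0.481% higher and 0.474% lower) and 0.168% with the fold threshold (0.153% higher), and edgeR also called 0. At an unadjusted DESeq2 p under 0.05 there were 3 genes among the 9 and 1109 among all 13724 genes tested. The log2 fold changes lay between -0.08 ± 0.12 for Fcrls and 1.06 ± 0.39 for Sall1 (DESeq2 adjusted p = 0.249), with a median of 0.55, beside 0.030 over all genes tested. P2ry12, Siglech and Sparc had groups that did not overlap, all higher in BLZ945 tdT+ cells, beside 6.72% of all genes (3.58% higher and 3.14% lower). Their log2 fold changes were 0.41 ± 0.28 for P2ry12 (DESeq2 adjusted p = 0.893), 0.60 ± 0.21 for Siglech (0.184) and 0.78 ± 0.35 for Sparc (0.458).

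Unlabelled cells of the repopulated brain were also compared with vehicle tdT+ cells. There was no tdT- library from vehicle mice, so the level of these genes in tdT- cells without depletion is not known. In this comparison treatment and reporter status differ together and cannot be told apart. This comparison called 8 of 9 genes as higher and 0 as lower in DESeq2, beside 6.76% of all genes tested (3.27% higher and 3.49% lower). With the fold threshold 7 were higher, beside 2.55% of all genes (1.48% higher). The log2 fold changes were 3.26 ± 0.39 for Sall1, 2.98 ± 0.35 for Sparc, 2.87 ± 0.33 for Slc2a5 and 2.73 ± 0.32 for Tmem119, then 2.08 ± 0.21 for Siglech, 1.99 ± 0.28 for P2ry12, 1.94 ± 0.19 for Olfml3 and 0.94 ± 0.17 for Gpr34. The largest DESeq2 adjusted p among these was 3.59e-06 (Gpr34). All 8 were higher in every tdT- library than in any vehicle library, beside 9.70% of all genes without overlap (4.82% higher and 4.87% lower). The median over the 9 genes was 2.08, beside 0.031 over all genes. Both comparisons of tdT- cells use the same tdT- libraries.

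In this comparison the log2 fold change of Fcrls was -0.35 ± 0.12 (DESeq2 adjusted p = 0.0607). It passed at 0.0335 with TMM factors (log2 fold change -0.38), at 0.00869 without the vehicle library M2 (-0.44), at 0.0310 without the tdT- library M1 (-0.40) and at 0.0247 without the tdT- library M2 (-0.42). Over 16 alternatives its adjusted p lay between 0.00869 and 0.249, and 4 passed. The log2 fold change was negative in all 16, from -0.44 to -0.24, so the call at 0.05 and not the sign moved with the libraries and scaling.

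**Figure D2:**
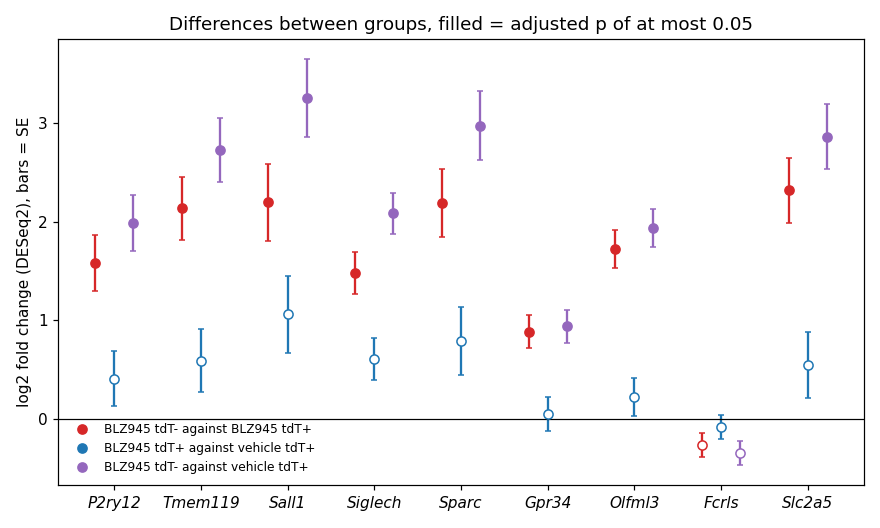
Log2 fold change (y axis, DESeq2, bars are SE) of the 9 genes (x axis) in the 3 comparisons (colours), with filled points at an adjusted p of at most 0.05. Values for tdT- cells run from 0.88 to 3.26 for 8 genes, Fcrls lies below 0, and no gene passes between the tdT+ groups.

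The tdT- libraries also differed from each other. M1 was the highest of the 4 for 8 of the 9 genes, and for these 8 both libraries labelled M were above both labelled F. The level in M1 was 2.52 times that in F1 for P2ry12, 2.60 times for Sparc, 2.52 times for Slc2a5, 1.94 times for Gpr34, 1.66 times for Olfml3 and 1.11 times for Fcrls. The difference in effect between the letters M and F was tested as an interaction in edgeR over all genes. It called 0 of 13724 genes for tdT- against BLZ945 tdT+ cells, with 984 genes and 7 of the 9 members at an unadjusted p under 0.05 and a lowest adjusted p of 0.504 among the members. For tdT- against vehicle cells the edgeR interaction also called 0 genes. There 1103 genes and 8 of the 9 members had an unadjusted edgeR p under 0.05, and the lowest adjusted p among the members was 0.185. Between the tdT+ groups it called 0 genes, with 449 genes and 1 member under 0.05 unadjusted. The letters are 2 mice each, so a difference between 2 animals and between the letters cannot be told apart.

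The second question was whether a single scaling factor per library accounts for all 9 genes. Each log2 level (pseudocount 1) was set against the mean of the other 8 genes in the same library. If 1 factor carried all of the variation, the spread that remains would be near the counting error, which was between 0.0054 and 0.073 on the log2 scale. The median SD over 12 libraries, which pools differences between groups and between libraries, was 0.96 for the levels. It was 0.48 after the other 8 were subtracted (0.43 to 0.50 with any library left out). A single factor thus removed much of this pooled variation but left more than counting error. Replicates over all genes also varied beyond sampling noise (smallest chi-square per degree of freedom 47.6 over 18 pairs). A remainder above counting error therefore does not by itself decide whether 1 factor is enough. Within groups the SD became smaller for every gene except Fcrls, for which it rose from 0.19 to 0.26. It went from 0.50 to 0.20 for Sparc, from 0.38 to 0.17 for P2ry12 and from 0.28 to 0.25 for Gpr34. Over all 12 libraries the SD became smaller for 7 of 9 genes, beside 10.6% of the other 13715 genes when set against the same 9. Since 8 of the 9 genes rose together in tdT- libraries, this contrast largely restates that rise and is no separate support. With group differences included, a common value per library carried 76.8% of the sum of squares of the 9 genes and 93.6% of the 7 genes other than Fcrls and Gpr34. Those 7 were singled out after their values were seen.

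The gene that departed most was Fcrls. Its SD was 0.24 in level and 1.22 relative to the other 8, and its log2 level above their mean was 4.31 to 4.74 in vehicle tdT+, 3.65 to 3.98 in BLZ945 tdT+ and 1.33 to 2.28 in tdT- libraries, without overlap. For Gpr34 these ranges were 1.82 to 2.64, 1.44 to 1.90 and 0.81 to 1.06. The remaining genes are described as 2 sets, chosen after their values were seen. P2ry12, Siglech and Olfml3 had an SD of 0.17, 0.15 and 0.23 relative to the other 8, and their slopes on the mean of the other 8 were 0.94, 0.99 and 0.97. Tmem119, Sparc, Slc2a5 and Sall1 had larger SDs of 0.44, 0.48, 0.49 and 0.72, with their highest group mean relative to the other 8 in tdT- libraries, and slopes of 1.38, 1.51, 1.498 and 1.60. The slopes of Gpr34 and Fcrls were 0.45 and -0.10. For each remaining gene the mean of the other 8 includes Gpr34 and Fcrls, so its slope and SD depend on that reference.

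**Figure D3:**
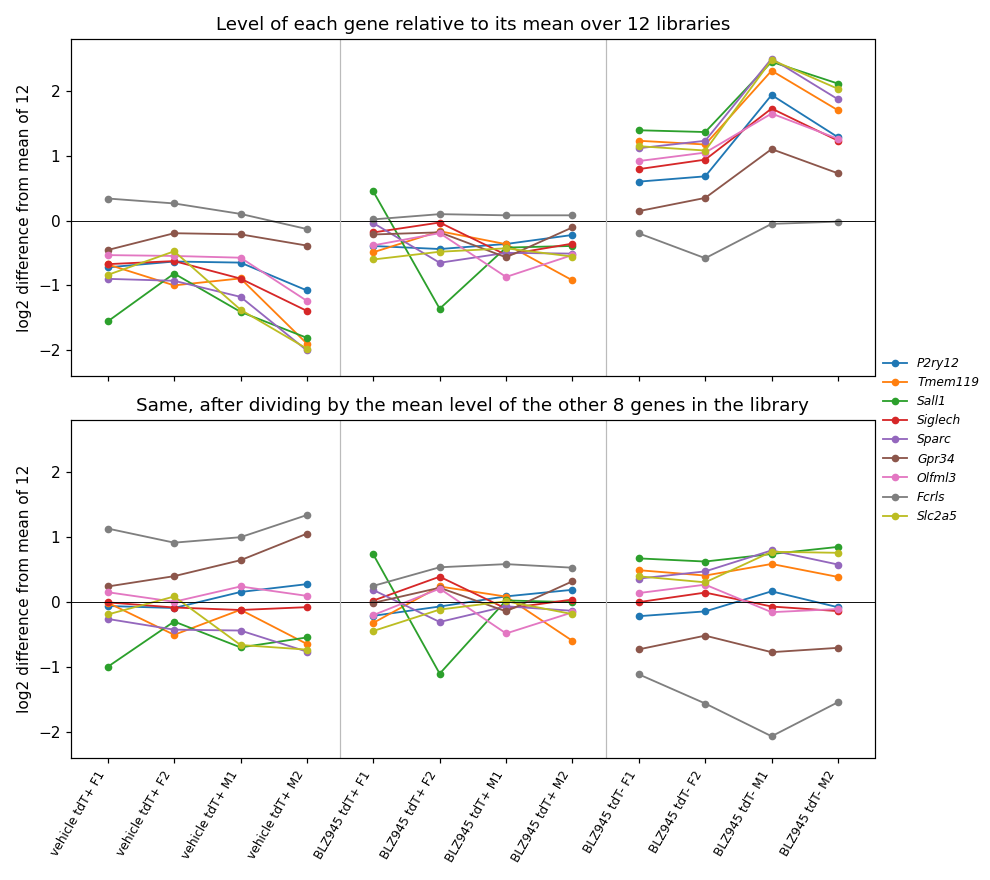
Log2 level of each of the 9 genes in 12 libraries relative to its mean over the libraries (top, y axis), and the same after the mean of the other 8 genes was subtracted (bottom), with lines that only guide the eye since replicates have no order. P2ry12, Siglech and Olfml3 stay near 0 in the bottom panel, whereas Fcrls is above 0 in all tdT+ and below 0 in all tdT- libraries.

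Ratios between pairs of genes gave the same picture in more detail. Over all 36 pairs the SD of the log2 ratio lay between 0.19 (Siglech and Olfml3) and 1.64 (Sall1 and Fcrls). It was 0.23 for P2ry12 and Siglech and 0.27 for P2ry12 and Olfml3, and 0.24 for Sparc and Slc2a5, 0.28 for Tmem119 and Sparc and 0.29 for Tmem119 and Slc2a5. The median was 0.47 among the 21 pairs without Fcrls and Gpr34, 0.88 for the 7 further pairs with Gpr34 and 1.25 for the 8 with Fcrls. In plain ratios of normalised counts, Siglech over Olfml3 was 0.553 ± 0.0389 in vehicle tdT+, 0.726 ± 0.0422 in BLZ945 tdT+ and 0.604 ± 0.0393 in tdT- libraries (SD, n = 4). The groups of this steadiest pair were thus still apart between the tdT+ groups, which lay between 0.498 and 0.589 and between 0.697 and 0.788.

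Fcrls over P2ry12 was 4.68 ± 0.414 in vehicle tdT+, 3.33 ± 0.222 in BLZ945 tdT+ and 1.02 ± 0.327 in tdT- libraries, and the 3 groups did not overlap. Gpr34 over P2ry12 was 1.12 ± 0.138, 0.864 ± 0.115 and 0.559 ± 0.0797 in the same order. P2ry12 over Tmem119, both higher in tdT- cells, was 4.11 ± 1.06, 3.57 ± 1.09 and 2.27 ± 0.173, with all tdT- libraries (2.04 to 2.43) below all tdT+ libraries (2.61 to 5.57). Sparc over Tmem119 was 0.956 ± 0.106, 1.13 ± 0.335 and 1.10 ± 0.103, with groups that overlapped.

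**Figure D4:**
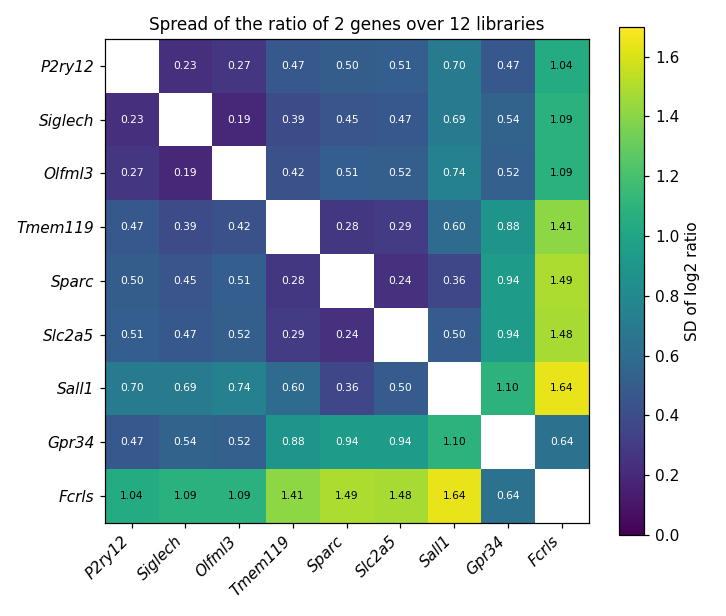
SD of the log2 ratio of each pair of the 9 genes (both axes) over 12 libraries, with the value in each cell and dark colours for steady ratios. The lowest value is 0.19 for Siglech and Olfml3 and the highest 1.64 for Sall1 and Fcrls.

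The change was set beside 3 other lists of brain macrophage genes. Over all genes tested, 2.85% were called higher and 3.48% lower in tdT- than in BLZ945 tdT+ cells. Against vehicle these shares were 3.27% and 3.49%, and between the tdT+ groups 0.481% and 0.474%. Of 21 other microglia genes, 12 were higher and 0 lower in tdT- than in BLZ945 tdT+ cells (median log2 fold change 1.33, beside 0.0036 over all genes tested). Ltc4s had the lowest value of the list (-0.30 ± 0.19), and Nav3 the highest (2.92 ± 1.62), neither called. Against vehicle 11 were higher and 0 lower, from -0.27 for Hpgds to 4.19 for Nav3, which was not called, and between the tdT+ groups 0 were called, with values from -1.11 for Crybb1 to 1.27 for Nav3.

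Genes that microglia and border macrophages share moved little. Of 12, 3 were higher and 1 lower in tdT- than in BLZ945 tdT+ cells (median 0.13). The lowest value was -0.26 ± 0.08 for Csf1r, the receptor that BLZ945 inhibits (DESeq2 adjusted p = 0.0343). Between the tdT+ groups 0 were called, from -0.17 for Aif1 to 0.60 for Mertk, and against vehicle 4 were higher and 0 lower, with the lowest value, -0.18, for Csf1r. Of the 10 border macrophage genes, 9 were lower and 0 higher in tdT- than in BLZ945 tdT+ cells (median -1.16), from -2.81 ± 0.13 for the haemoglobin scavenger receptor Cd163 to 0.11 ± 0.18 for Clec12a, which was not called. Against vehicle 9 were lower, from -2.27 for Cd163 to 0.16 for Clec12a. Between the tdT+ groups 3 were higher and 1 lower, from -0.50 for the chemokine Pf4 to 1.24 for the hyaluronan receptor Lyve1. Mrc1, in this list, encodes the sorting marker and had 3882, 3738, 2232 and 3421 normalised counts in tdT- libraries F1, F2, M1 and M2, against 8579, 8004, 12341 and 9918 in BLZ945 tdT+ libraries. Its log2 fold change was -1.55 ± 0.19 (DESeq2 adjusted p = 3.55e-13), and it was lowest in the tdT- library M1, where 8 of the 9 signature genes were highest. The part that the border genes and the neutrophil and astrocyte markers have in the levels of the 9 genes was not tested.

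**Figure D5:**
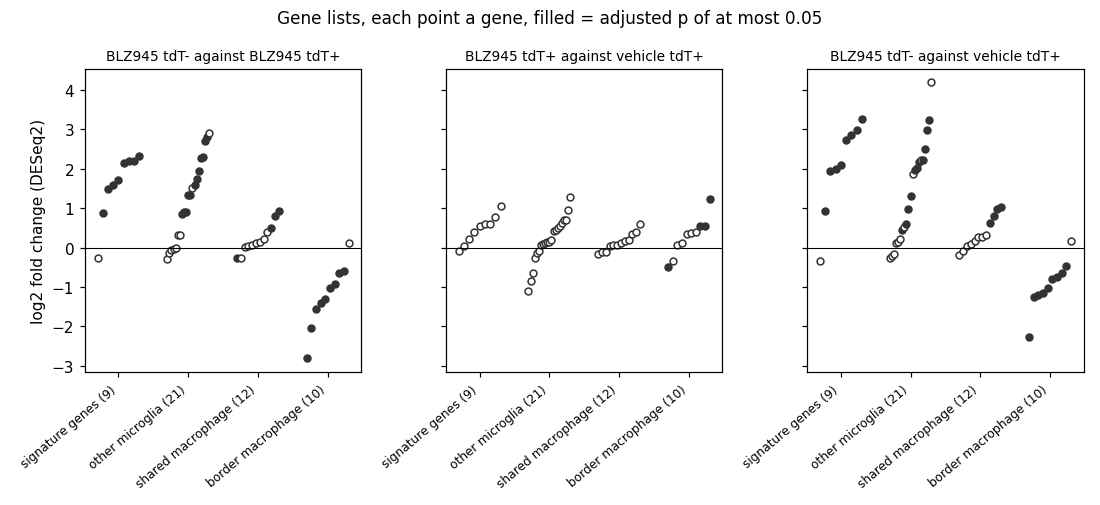
Log2 fold change (y axis, DESeq2) of each gene in the 4 lists (x axis, list sizes 9, 21, 12 and 10) in the 3 comparisons, with filled points at an adjusted p of at most 0.05 and genes ordered by value within a list. In tdT- cells the microglia lists lie mostly above 0 and the border list below.

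Genes whose pattern was most like that of the 9 were ranked by Pearson's r of log2 level with their mean over 12 libraries, among the 9582 other genes whose mean reached 100 normalised counts. Among the 10 highest were Selplg (0.994), Ldhb (0.987), Cd9 (0.986), Lpcat2 (0.986), Serpine2 (0.984), Cd81 (0.979), F11r (0.979), Adgrg1 (0.977) and Ywhah (0.977). Selplg, the gene of the P-selectin ligand, rose from 6748 in vehicle and 9930 in BLZ945 tdT+ to 38094 normalised counts in tdT- cells, and the SD of its log2 ratio to the mean of the 9 genes was 0.21. The r describes 12 libraries that share 3 groups and has no test.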

How the data were processed

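Counts of 12 libraries were used as deposited. Per the file headers, the authors counted reads per gene with featureCounts 2.0.6 over exons of a filtered GENCODE M33 annotation (GRCm39) with tdTomato added, without strand or multi-mapping reads, and per the labels they aligned with STAR 2.7.11a and used SMART-Seq cDNA amplified by PCR, so counting error does not cover amplification. All 12 count columns were matched by library name, 1 vehicle column by its library number because its mouse label differed.

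Analyses used R 4.3.3. A gene was dropped if 75% or more of its libraries (9 of 12) were under 10 counts, which left 13724. DESeq2 1.42.0 (two-sided Wald test, group only, all 12 libraries) and apeglm 1.24.0 were used, and genes were called at 0.05 after Benjamini-Hochberg adjustment. Alternatives were edgeR 4.0.16, TMM, no filter, each library left out and the mouse label as a block. For tdT- against BLZ945 tdT+ cells the block fit used the BLZ945 libraries only. For the comparisons with vehicle it used all 12 libraries, where the block joins separate animals by their label. TPM used the deposited lengths. No replicate pair was near sampling noise (smallest chi-square per degree of freedom 47.6). Deviations of the same mouse, paired because the tdT- and tdT+ libraries share the animal, correlated by -0.0046 to 0.035 across genes. For separate animals that share only a label, the range was 0.0040 to 0.048 between BLZ945 tdT+ and vehicle libraries. It was -0.018 to 0.021 between tdT- and vehicle libraries, so libraries of 1 animal were not more alike by this measure. The fits were tested on simulated data. The members and gene lists were chosen with earlier results of these data known. The text names all 9 members, the smallest and largest log2 fold change of each list, and the 10 genes most like the members. Some genes that this rule selects are not reported here. Mrc1 and Chil3 were added after their values were seen.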

Additional observations from a re-analysis of the deposited data

Results flagged for a closer look

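In each group of 4 libraries, the gap of the highest or lowest library to its neighbour was set against the range for the 9 genes and for their mean, 30 groups in all. In 1 of them the gap passed the critical value of Dixon's test for 4 samples, where chance flags about 1 in 20 groups. In vehicle tdT+ cells, Olfml3 was lowest in M2 at 4370 normalised counts, while the other 3 libraries lay between 6933 and 7128, a gap of 0.929 of the range. Every other member except Gpr34 was also lowest in that library among the vehicle libraries. Its mouse label in the count table was the one that differed from its sample label.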

How the results depend on the processing

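The count of members called in tdT- against BLZ945 tdT+ cells was 8 with edgeR, with TMM factors and without the filter, 7 with the mouse label as a replicate block or with a shrunken log2 fold change of at least 1, and 8 without any single library. Between tdT+ groups it was 0 in every alternative run. Against vehicle it lay between 8 and 9 with a library left out, and was 8 with the block, 9 with TMM factors and 7 with the fold threshold. Of 432 log2 fold changes under alternatives, 426 stayed on the same side of the threshold with the same sign, 1 lost its call (Gpr34 with the block), 4 gained one (Fcrls against vehicle) and 1 reversed, Gpr34 between tdT+ groups, at -0.0055 without the BLZ945 tdT+ library M2 (up to 0.14 without M1). The block gave 998, 170 and 1129 genes called over all genes instead of 868, 131 and 928, in the order tdT- against BLZ945 tdT+, BLZ945 tdT+ against vehicle and tdT- against vehicle. In the comparisons with vehicle the block joined separate animals that share only a label, so those counts are no check within a mouse. The median SD relative to the other 8 genes was 0.30 for the 7 members without Fcrls and Gpr34, an alternative added after seeing the data, and for all 9 it lay between 0.43 and 0.50 with a library left out. Depth limits little, since the least abundant member, Sall1, had at least 160 normalised counts in each library.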
